A study of Mus musculus with 8 samples.

Results

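Erythroid genes encode the proteins that a blood progenitor switches on as it becomes a red cell, and they were read here across 8 mouse leukaemias of 2 genotypes. The set was defined as 30 named genes, and its members were found by symbol in the deposited tables. Of these, 29 had a row among the 18860 genes of the tables, 28 under the current symbol and Epb42 under its older symbol Epb4.2, while Icam4 was not analysed here. All 29 passed the filter on low values, a deposited value of 10 or more in 4 or more libraries, as did 14679 genes in all, members included. No member lies in the 11B3 interval that was deleted in one of the groups, although 3 members (Hba-a1, Hba-a2 and Slc4a1) are on the same chromosome, 11.

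Red cell development runs from progenitors that divide, through erythroblasts that fill with haemoglobin, to cells that expel the nucleus. The transcription factors Gata1 and Klf1 act early and throughout, the carbonic anhydrase Car1 is abundant in early erythroid progenitors, and the globin genes reach their highest levels late. Haem is made in step with globin, from the first enzyme Alas2 to the last enzyme Fech, and a membrane skeleton anchored by the anion exchanger Slc4a1 is built over the same period. In marrow that holds acute myeloid leukaemia, erythroid transcripts can come from the leukaemia cells or from other cells of the marrow.

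The first group, called 11B3-deleted, had the genotype 11B3fl/p53fl (n = 4 libraries), and the series text describes it as deleted for 11B3, the chromosome 11 segment that contains the p53 gene Trp53. The second, called p53-loss-only, was p53fl/fl (n = 4 libraries). Every leukaemia of both groups also carried shNf1 and shMll3, hairpins against Nf1 and Mll3, and Vav1-Cre, a recombinase driven by a promoter active in blood cells. The RNA came from marrow leukaemia cells of moribund C57BL/6 mice, and the sources used here give neither their age nor their sex. The labels count lines per genotype without saying that each line came from its own mouse, so a p-value speaks of the spread among these libraries alone.

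The recovered depth was 30591456 to 35719495 reads in the 11B3-deleted libraries and 30502718 to 33365364 reads in the p53-loss-only libraries. A deposited value is 1 plus the reads of a gene divided by a size factor of the library, so 3 reads correspond to values of 3.66 to 4.29. Where 4 values of a group are given, they are those of replicates 1 to 4. Trp53 averaged 309 ± 98.8 in 11B3-deleted leukaemias and 417 ± 118 in p53-loss-only leukaemias (SD, n = 4 each), which does not check the labels, because a gene-level value can hold reads from outside the floxed exons. Eif5a, a gene of the interval, averaged 17826 ± 5262 in 11B3-deleted leukaemias and 29215 ± 6056 in p53-loss-only leukaemias (SD, n = 4 each), with no overlap between groups. Sco1 and Alox12, the genes that bound the interval, were read as well. Sco1 averaged 400 ± 127 in 11B3-deleted leukaemias and 683 ± 100 in p53-loss-only leukaemias (SD, n = 4 each), also with no overlap. Alox12 was low, at 17.2 ± 6.85 in 11B3-deleted leukaemias and 18.9 ± 6.15 in p53-loss-only leukaemias (SD, n = 4 each), and its groups overlapped. The labelled cell type was checked against its markers. Mpo, the peroxidase of myeloid granules, had values of 75329 to 414041 over the 8 libraries. The library 11B3-deleted replicate 3 stood apart in its B-cell markers, whose sum was 54754 there, against 382 to 1500 in the other 11B3-deleted libraries and 406 to 2146 in the p53-loss-only libraries.

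The promoters of 4 members are shown because these genes stand for the steps that the results separate: a regulator, the first haem enzyme, and an alpha and a beta globin. The stretches are the 250 bases before the start of the RefSeq gene in build GRCm38.p6, written along the gene's own strand. They come from another build than the one named by the submitters' processing notes, mm9. Capitals mark the letters GATAA or the reverse complement TTATC, the core that GATA factors such as Gata1 recognise, and CCACACC, the CACC box that Klf1 recognises. Klf1 lies on the forward strand at chr8:84901732-84901981, Alas2 on the forward strand at chrX:150547167-150547416, Hba-a1 on the forward strand at chr11:32283422-32283671, and Hbb-b1, which RefSeq names Hbb-bs, on the reverse strand at chr7:103827929-103828178.
Klf1: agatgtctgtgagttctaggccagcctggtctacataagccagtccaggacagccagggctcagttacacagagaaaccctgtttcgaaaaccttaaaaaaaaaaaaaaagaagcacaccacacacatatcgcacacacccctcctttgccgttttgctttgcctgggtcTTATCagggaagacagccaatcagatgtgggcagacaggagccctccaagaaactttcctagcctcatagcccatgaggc
Alas2: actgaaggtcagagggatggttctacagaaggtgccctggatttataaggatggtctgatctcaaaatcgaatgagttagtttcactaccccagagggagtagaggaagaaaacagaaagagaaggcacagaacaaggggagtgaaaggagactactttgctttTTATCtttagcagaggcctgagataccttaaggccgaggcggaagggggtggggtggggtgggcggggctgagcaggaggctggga
Hba-a1: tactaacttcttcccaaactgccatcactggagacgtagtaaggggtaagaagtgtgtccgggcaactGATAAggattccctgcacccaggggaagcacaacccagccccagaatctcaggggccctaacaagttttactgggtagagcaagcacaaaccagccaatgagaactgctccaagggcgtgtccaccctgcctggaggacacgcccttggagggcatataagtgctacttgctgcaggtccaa
Hbb-b1: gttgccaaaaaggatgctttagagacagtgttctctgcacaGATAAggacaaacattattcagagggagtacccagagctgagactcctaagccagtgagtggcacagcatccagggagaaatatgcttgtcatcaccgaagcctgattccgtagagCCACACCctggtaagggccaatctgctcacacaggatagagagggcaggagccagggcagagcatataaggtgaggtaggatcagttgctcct

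A promoter of the same length was found for 22 of the 29 members, and the searches covered both strands. A member with more than 1 promoter, as Uros and Tfrc had, counted if any of them matched. The shares of all promoters count each promoter singly. The longer GATA core AGATAA stood in 5 of the 22 (22.7%; Alas2, Epb42, Hbb-b1, Rhd and Trim10), against 9.99% of 32851 promoters. The CACC box CCACACC stood in 1 (4.55%; Hbb-b1), against 6.52% of all promoters. The NF-E2 core TGAGTCA, recognised by the factor whose larger subunit is Nfe2, stood in 2 (9.09%; Mt2 and Trim10), against 4.46%. The short core GATAA was added after the sequences had been seen, and every AGATAA match holds it. It stood in 13 of the 22 (59.1%), which include Klf1, Gfi1b, Alas2, Rhag, Ermap and all 4 globin genes, against 22.6% of all promoters. Uros is among the 13 through only 1 of its promoters. A match describes letters in a window and is not a binding site.

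The members moved over a far wider range between libraries than most genes did. The median member spanned 4.96 on the log2 scale between its lowest and highest library, against 1.29 for the median of all genes tested. The spread within genotypes was also wide: the residual SD of the log2 values exceeded 1 in 21 of 29 members, against 14.8% of all genes tested. The highest value was more than 100 times the lowest for 7 members (Car1, Gata1, Rhag, Car2, Ermap, Tspo2 and Klf1), 5 to 100 times for 15, and less than 5 times for 7. At the extremes stood Car1, with 1357 times, and Nfe2, with 1.37 times.

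A small number of libraries set these ranges: those that held most of the maxima were 1 of each genotype, and those that held most of the minima were p53-loss-only. The library 11B3-deleted replicate 1 held the highest value of 17 members, and p53-loss-only replicate 2 held that of 9, so that these libraries, 1 of each genotype, held the maximum of 26 of the 29. Over all genes tested, the same libraries held 21.3% and 6.49% of the maxima. The lowest value was in p53-loss-only replicate 3 for 21 members and in p53-loss-only replicate 4 for 3, against 11.5% and 17.3% over all genes tested. The median member level, on the log2 scale relative to the mean of the 8 libraries, was 1.23, -0.54, 0.82 and 0.61 in the 11B3-deleted libraries, against 0.47, 1.48, -2.70 and -1.35 in the p53-loss-only libraries. The p53-loss-only group thus held both the highest and the lowest of the 8. Since RNA was taken in bulk, fewer cells of a type and less RNA per cell cannot be told apart.

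**Figure D1:**
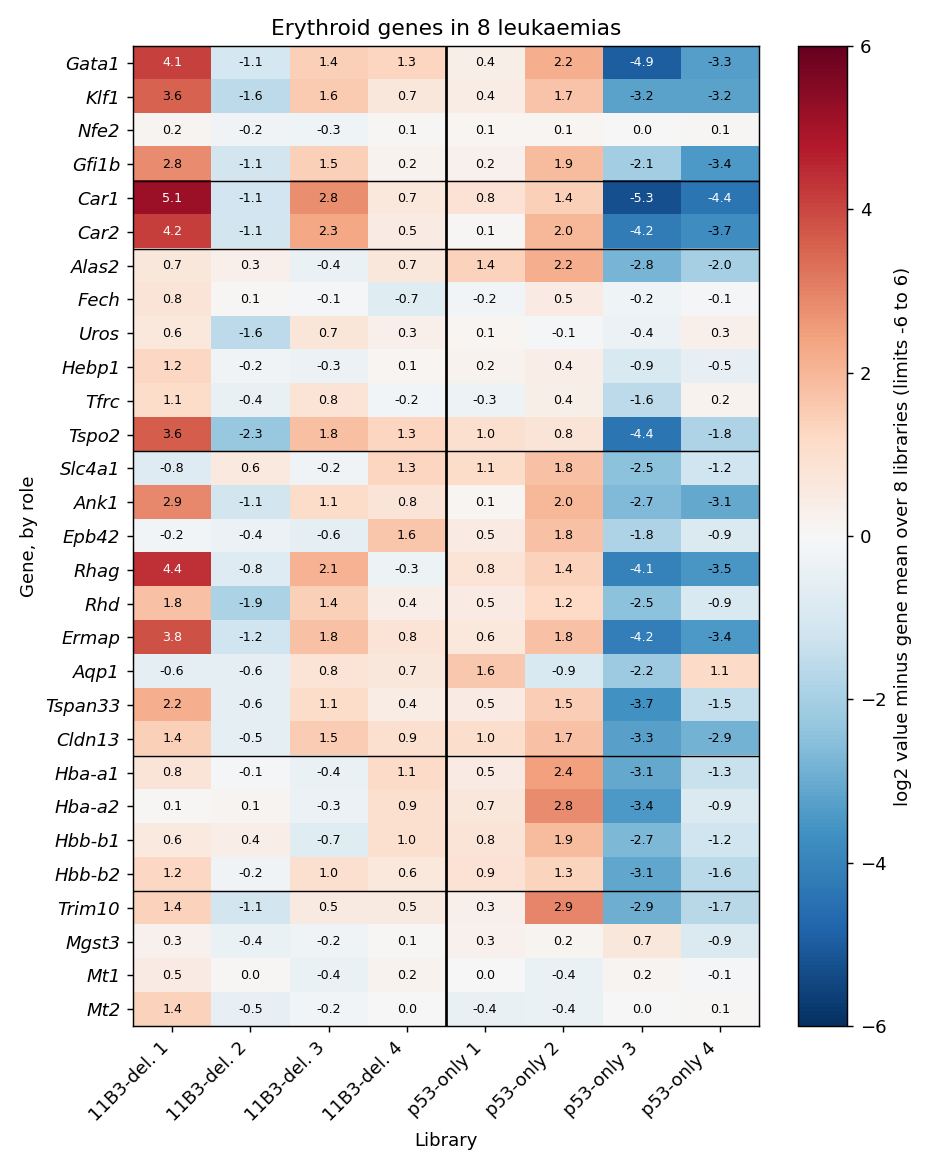
Heat map of 29 erythroid genes (rows, by role) in 8 libraries (columns, 11B3-deleted at left), coloured by the log2 value minus that gene's mean over the libraries. The column of 11B3-deleted replicate 1 is high for regulators, carbonic anhydrases and most membrane genes, that of p53-loss-only replicate 2 is high for globins, and those of p53-loss-only replicates 3 and 4 are low for most rows.

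The early genes Car1, Gata1 and Klf1 were all highest in 11B3-deleted replicate 1 and lowest in p53-loss-only replicate 3. Gata1, the master regulator of the erythroid programme, had values of 5044, 142, 812 and 718 in the 11B3-deleted libraries and 387, 1333, 9.8 and 29.8 in the p53-loss-only libraries. The lowest of these rests on 8 reads, the fewest of any member in any library. Means were 1679 ± 2263 in 11B3-deleted leukaemias and 440 ± 620 in p53-loss-only leukaemias (SD, n = 4 each). Replicate 1 of the 11B3-deleted group lay above all others, replicate 2 lay below 2 of the p53-loss-only libraries, and the groups overlapped. The log2 difference was 2.86 (SE 1.59, 95% interval -0.74 to 6.47, adjusted p = 0.996 by limma).

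Klf1, which switches on adult beta globin and many membrane genes, ran in the same order at the extremes. Its values were 3755, 109, 961 and 512 in the 11B3-deleted libraries, against 432, 1056, 33.9 and 34.0 in the p53-loss-only libraries. The log2 difference was 2.14 (SE 1.36, 95% interval -0.94 to 5.23). Gfi1b, a repressor required for erythroid and megakaryocyte development, had 2034, 133, 784 and 328 in the 11B3-deleted libraries, against 338, 1084, 66.8 and 26.6 in the p53-loss-only libraries, a log2 difference of 1.69 (SE 1.21). For all 3 regulators p53-loss-only replicate 2 was the second highest of the 8 libraries. Nfe2, which is also used by megakaryocytes and myeloid cells, was nearly level: 7783, 5871, 5700 and 7117 in the 11B3-deleted libraries, against 7522, 7372, 6714 and 7204 in the p53-loss-only libraries, a log2 difference of -0.13 (SE 0.15).

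Car1, the carbonic anhydrase of early erythroid progenitors, reached the highest value of any member. It had values of 118944, 1555, 23898 and 5391 in the 11B3-deleted libraries, against 6160, 9175, 87.6 and 161.8 in the p53-loss-only libraries. In 11B3-deleted replicate 1 it took 0.370% of all reads (Wilson 95% interval 0.368 to 0.372%), against 0.0310% in p53-loss-only replicate 2 (0.0304 to 0.0316%). These intervals cover counting error only. Means were 37447 ± 55199.9 in 11B3-deleted leukaemias and 3896 ± 4526 in p53-loss-only leukaemias (SD, n = 4 each), so the SD of the deleted group exceeded its mean. The log2 difference of Car1 was 3.71 (SE 1.80, 95% interval -0.35 to 7.78), and its unadjusted p was the smallest of the members (adjusted p = 0.996 by limma). Without 11B3-deleted replicate 1 the log2 difference was 2.63.

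Car2, the carbonic anhydrase that is kept in mature red cells and is also used by other cell types, followed Car1. It had 43867, 1165, 12308 and 3496 in the 11B3-deleted libraries, against 2589, 9678, 132.6 and 187.4 in the p53-loss-only libraries. The log2 difference was 2.95 (SE 1.53). The ratio of Car1 to Car2 was 2.71, 1.33, 1.94 and 1.54 in the 11B3-deleted libraries, against 2.38, 0.948, 0.661 and 0.864 in the p53-loss-only libraries, and the ranges overlapped.

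**Figure D2:**
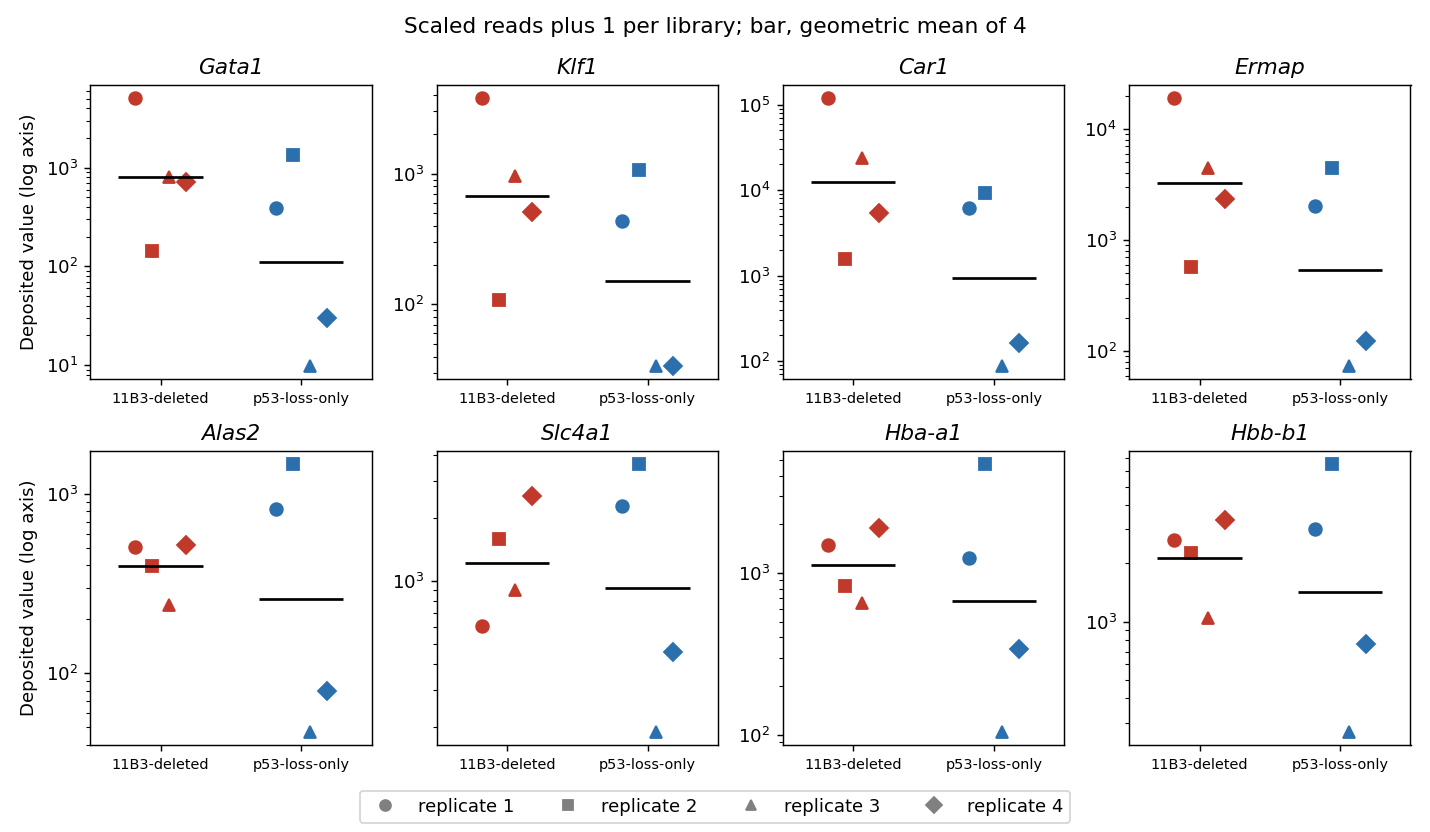
Deposited values (reads scaled by the size factor, plus 1; log axis) of 8 erythroid genes, with a point per library and a bar at the geometric mean of the 4 libraries of each genotype, 11B3-deleted at left. The 11B3-deleted points of Car1 run from 1555 to 118944 and overlap the p53-loss-only points, which run from 87.6 to 9175; for Hba-a1 the highest point, 4710, is a p53-loss-only library.

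The adult globin genes were read separately as the late members. Hba-a1 and Hba-a2 encode alpha globin and Hbb-b1 and Hbb-b2 encode beta globin. The coding sequences of Hba-a1 and Hba-a2 differ at 1 of 429 bases in the GENCODE M21 transcripts (build GRCm38), and those of Hbb-b1 and Hbb-b2 at 1 of 444, or 99.8% identity in each pair. The sources used here do not say how reads shared between copies were counted, so the split within each pair is uncertain. The sums do not depend on that split, but reads dropped as shared would be missing from them too.

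Hba-a1 had values of 1497, 828, 655 and 1909 in the 11B3-deleted libraries, against 1231, 4710, 104 and 341 in the p53-loss-only libraries. Hbb-b1 had 2636, 2258, 1040 and 3367 in the 11B3-deleted libraries, against 3010, 6528, 269 and 764 in the p53-loss-only libraries. For both genes the 4 11B3-deleted libraries lay inside the range of the p53-loss-only libraries. Hba-a2 was lower than Hba-a1 in every library, with 83.4 to 204 in the 11B3-deleted libraries and 9.8 to 750.5 in the p53-loss-only libraries. Hbb-b2 had 1132, 419, 932 and 737 in the 11B3-deleted libraries, against 867, 1206, 54.7 and 154 in the p53-loss-only libraries.

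The direction of the difference depended on the scale for 3 of the 4 globin genes, and none of the 4 passed the test by limma, edgeR or DESeq2. On the log scale, where each library weighs alike, the limma log2 differences were 0.73 (SE 1.02) for Hba-a1, 0.40 (SE 1.13) for Hba-a2, 0.59 (SE 0.90) for Hbb-b1 and 1.30 (SE 0.91) for Hbb-b2. On the count scale, edgeR gave -0.40, -0.95 and -0.20 for Hba-a1, Hba-a2 and Hbb-b1, and DESeq2 likewise gave values below 0 for these genes. Hbb-b2 stayed above 0, at 0.49 by edgeR and 0.50 by DESeq2. The arithmetic means were 1222 ± 584 for Hba-a1 in 11B3-deleted leukaemias and 1597 ± 2132 in p53-loss-only leukaemias (SD, n = 4 each). Leaving out p53-loss-only replicate 3, the library lowest in globin, gave a limma log2 difference of -0.17 for Hba-a1 and -0.21 for Hbb-b1, and 1 of the 4 globin genes then had the higher mean in the 11B3-deleted group.

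Reads counted to the globin genes were scarce in every library, and reads dropped as shared between copies would be missing from them. The 4 genes together took 0.0167% of reads in 11B3-deleted replicate 1 (Wilson 95% interval 0.0163 to 0.0172%) and 0.0445% in p53-loss-only replicate 2 (0.0438 to 0.0452%), the highest of the 8. The lowest share was 0.00126%, in p53-loss-only replicate 3. The ratio of alpha to beta globin values was 0.427, 0.353, 0.375 and 0.515 in the 11B3-deleted libraries, against 0.362, 0.706, 0.352 and 0.434 in the p53-loss-only libraries. Hbb-b2 made up 30.0, 15.6, 47.2 and 18.0% of the beta globin values in the 11B3-deleted libraries, against 22.4, 15.6, 16.9 and 16.8% in the p53-loss-only libraries. Replicates 1 and 3 of the 11B3-deleted group, highest in this share, also had the highest Car1 values.

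Early and late members were then set against each other within each library. The early level, the mean of the log2 values of Car1, Gata1 and Klf1 relative to the 8-library mean of each gene, was 4.25, -1.25, 1.95 and 0.87 in the 11B3-deleted libraries, against 0.55, 1.77, -4.48 and -3.65 in the p53-loss-only libraries. The globin level, formed alike from the 4 globin genes, was 0.67, 0.06, -0.14 and 0.91 in the 11B3-deleted libraries, against 0.71, 2.12, -3.08 and -1.27 in the p53-loss-only libraries. The early level spanned more of the scale than the globin level, and p53-loss-only replicates 3 and 4 were the lowest of the 8 in both.

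The early level minus the globin level was 3.58, -1.32, 2.08 and -0.04 in the 11B3-deleted libraries, against -0.16, -0.35, -1.40 and -2.39 in the p53-loss-only libraries. Replicates 1 and 3 of the 11B3-deleted group lay above every p53-loss-only library. Replicate 4 lay just above the highest of them, and replicate 2 lay among them, so the groups overlapped through a single library. The mean was 1.08 ± 2.18 in 11B3-deleted leukaemias and -1.08 ± 1.03 in p53-loss-only leukaemias (SD, n = 4 each), a difference that was not tested because the genes were chosen with these data known.

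The ratio of the Car1 value to the summed globin values, which compares libraries but not the levels of the genes, was also highest in 11B3-deleted replicates 1 and 3. It was 22.1, 0.429, 8.82 and 0.867 in the 11B3-deleted libraries, against 1.17, 0.695, 0.200 and 0.123 in the p53-loss-only libraries. By this ratio 11B3-deleted replicates 2 and 4 both lay inside the range of the p53-loss-only libraries. Per kilobase of exon in GENCODE M21, Car1 had 95307 and Hbb-b1 had 3432 in 11B3-deleted replicate 1, while Car1 had 7352 and Hbb-b1 had 8501 in p53-loss-only replicate 2. On this length-corrected scale the Car1 value exceeded that of Hbb-b1 in the first of these libraries, and the reverse held in the second. The scale does not correct for reads shared between Hbb-b1 and Hbb-b2. It therefore compares these libraries and does not rank the RNA levels of Car1 and Hbb-b1. Both libraries are rich in erythroid RNA.

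**Figure D3:**
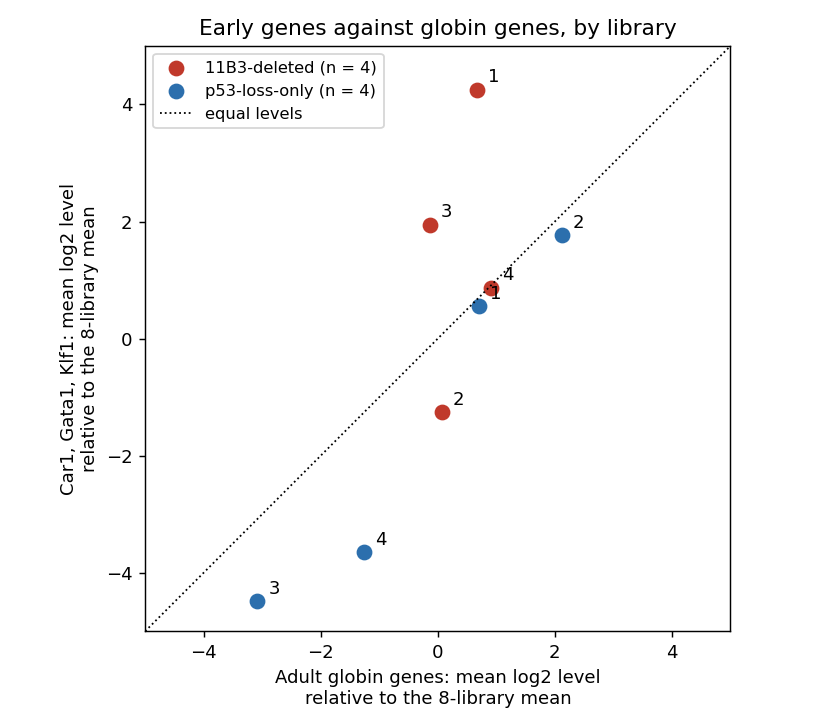
Mean log2 level of Car1, Gata1 and Klf1 (y axis) against that of the 4 adult globin genes (x axis), each relative to the mean of the 8 libraries, with a point per library and a dotted line of equal levels. The libraries 11B3-deleted replicates 1 and 3 lie above the line, with differences of 3.58 and 2.08, and p53-loss-only replicate 4 lies farthest below it, with a difference of -2.39.

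These libraries also differed over the whole module. The value in 11B3-deleted replicate 1 was above that in p53-loss-only replicate 2 for 20 members and below it for 9. The highest of these ratios was 13.0 for Car1, followed by 7.95 for Rhag, 7.09 for Tspo2, 4.53 for Car2, 4.24 for Ermap, 3.78 for Gata1 and 3.56 for Klf1. The lowest were 0.148 for Hba-a2, 0.169 for Slc4a1, 0.259 for Epb42, 0.318 for Hba-a1, 0.341 for Trim10, 0.348 for Alas2 and 0.404 for Hbb-b1. The 9 below 1 include all 4 globin genes.

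The haem and iron members had separate patterns. Alas2, the erythroid form of the first haem enzyme, ranged like the globins, with 509, 394, 240 and 520 in the 11B3-deleted libraries, against 827, 1462, 47.1 and 79.8 in the p53-loss-only libraries. Its log2 difference was 0.62 by limma (SE 1.04) and -0.55 by edgeR. Fech, which inserts iron into protoporphyrin to make haem, had a narrower range than Alas2, with 4687, 2893, 2494 and 1664 in the 11B3-deleted libraries, against 2448, 3783, 2314 and 2516 in the p53-loss-only libraries, a log2 difference of 0.02 (SE 0.31). Uros, a middle enzyme of the pathway needed in all cells, had 90.3 to 435 in the 11B3-deleted libraries and 205 to 327 in the p53-loss-only libraries, and Hebp1, a haem-binding protein, had 163 to 477 in the 11B3-deleted libraries and 109.6 to 268 in the p53-loss-only libraries.

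Tfrc, the transferrin receptor that brings in iron, is used by all dividing cells. It had 12052, 4174, 9883 and 5047 in the 11B3-deleted libraries, against 4485, 7239, 1867 and 6419 in the p53-loss-only libraries, a log2 difference of 0.67 (SE 0.48). Tspo2, a relative of the translocator protein found in erythroid cells, tracked the early genes: 3021, 51.6, 869.5 and 594 in the 11B3-deleted libraries, against 484, 426, 12 and 69.2 in the p53-loss-only libraries. Its log2 difference was 2.22 (SE 1.45).

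Among membrane genes, some had the order of Car1 and others that of the globins. Rhag, the glycoprotein partner of the Rh proteins, had 10863, 311, 2270 and 423 in the 11B3-deleted libraries, against 924, 1367, 31.7 and 46.8 in the p53-loss-only libraries, a log2 difference of 2.69 (SE 1.51). Ermap, an erythroid membrane protein of the immunoglobulin family, had 18887, 574, 4444 and 2331 in the 11B3-deleted libraries, against 2009, 4454, 73.4 and 122 in the p53-loss-only libraries, a log2 difference of 2.61 (SE 1.47). Ank1, the ankyrin that links the skeleton to Slc4a1, had 7814, 499, 2280 and 1828 in the 11B3-deleted libraries, against 1143, 4207, 168 and 127 in the p53-loss-only libraries, a log2 difference of 1.83 (SE 1.19). In these 3 genes 11B3-deleted replicate 1 was the highest of the 8 libraries and p53-loss-only replicate 3 or 4 the lowest.

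Rhd, the Rh blood group protein, ran from 79.6 to 991 in the 11B3-deleted libraries and from 52.5 to 679 in the p53-loss-only libraries. Tspan33, a tetraspanin known from erythroblasts, ran from 330 to 2214 in the 11B3-deleted libraries and from 39.4 to 1384 in the p53-loss-only libraries. Cldn13, a claudin of mouse erythroblasts, ran from 137 to 571 in the 11B3-deleted libraries and from 20.7 to 666 in the p53-loss-only libraries. Their log2 differences were 0.86 (SE 0.96), 1.56 (SE 1.05) and 1.66 (SE 1.15), and none passed the test.

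The members of the mature membrane had another order. Slc4a1, the anion exchanger and main anchor of the skeleton, had 609, 1581, 901 and 2546 in the 11B3-deleted libraries, against 2277, 3597, 190 and 459 in the p53-loss-only libraries. The library with the most Car1, 11B3-deleted replicate 1, was the lowest of its group for Slc4a1. Epb42, a protein of the same anchor, was scarce, with 34.0 to 160 in the 11B3-deleted libraries and 14.2 to 174 in the p53-loss-only libraries. For both genes the log2 difference was above 0 by limma (0.41, SE 0.90, for Slc4a1 and 0.25, SE 0.82, for Epb42) and below 0 by edgeR (-0.21 and -0.05). Aqp1, a water channel that blood vessel cells also express, had 537, 520, 1396 and 1252 in the 11B3-deleted libraries, against 2424, 425, 172 and 1742 in the p53-loss-only libraries, and its log2 difference of 0.17 (SE 0.80) was also below 0 by edgeR (-0.36).

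Of the remaining members, Trim10 had the library extremes of the globins and the other 3 had narrower ranges. Trim10, a ring-finger protein known from erythroid cells, ran from 54.8 to 304 in the 11B3-deleted libraries and from 15.3 to 891 in the p53-loss-only libraries, with a log2 difference of 0.68 (SE 1.15) by limma and -0.67 by edgeR. Mgst3, a microsomal glutathione transferase, ran from 285 to 444 in the 11B3-deleted libraries and from 207 to 597.5 in the p53-loss-only libraries, and was the only member highest in p53-loss-only replicate 3, the library lowest in most others. The metal-binding proteins Mt1 and Mt2, made in many cell types, had log2 differences of 0.17 (SE 0.22) and 0.38 (SE 0.37), with Mt1 at 4394 to 8273 in the 11B3-deleted libraries and 4408 to 6533 in the p53-loss-only libraries.

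The comparison of genotypes asks whether loss of the larger segment goes with another level of these genes than loss of p53 alone. None of the 29 members passed the adjusted threshold of 0.05 by limma, where 2 of 14679 genes did (0.0136%). By edgeR none passed, where 0.00681% of genes did, and by DESeq2 none passed, where 0.444% did. None had an unadjusted limma p under 0.05, against 3.56% of all genes tested (1.18% higher and 2.38% lower in the 11B3-deleted group). At that unadjusted level edgeR also gave 0 members (4.2% of all genes), and DESeq2 gave 1, Car1 (5.49% of all genes). All 29 members overlapped between groups, against 2.15% of genes tested whose groups did not overlap. All 29 of the 95% intervals of the log2 difference include 0, and they are wide: that of Hba-a1 runs from -1.58 to 3.03 and that of Slc4a1 from -1.62 to 2.44.

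The signs of the log2 differences leaned to the 11B3-deleted group on the log scale. The limma difference was above 0 for 27 of 29 members (93.1%), against 51.6% of all genes tested, and was at least 1 for 12 (41.4%), against 3.2%. None was at -1 or below, against 2.98%. On the count scale of edgeR and of DESeq2, 19 were above 0 and 10 below, and the arithmetic means split in the same numbers. The members share libraries and many follow the same libraries, so these counts are not counts of separate observations. Without p53-loss-only replicate 3 the limma difference was above 0 for 18 of 29.

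By role, the median limma log2 difference was 3.33 for the carbonic anhydrases, 1.92 for the regulators, 1.56 for the membrane genes, 0.66 for the globins, 0.51 for the haem and iron genes and 0.28 for the others. The median over all 29 members was 0.68, against 0.01 for all genes tested. For the early genes Car1, Gata1 and Klf1 the median was 2.86 by limma and 1.90 by edgeR. For the globins it was 0.66 by limma and -0.30 by edgeR. All 3 early genes kept their sign on both scales, and of the 4 globins Hbb-b2 kept its sign and the others did not.

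The libraries that decide these values can be named. Without p53-loss-only replicate 2, the p53-loss-only library with the most erythroid RNA, 11 members had an unadjusted limma p under 0.05, all higher in the 11B3-deleted group, against 4.65% of all genes. They were Gata1, Klf1, Gfi1b, Car1, Car2, Ank1, Rhag, Ermap, Tspan33, Cldn13 and Hbb-b2. Without 11B3-deleted replicate 2, the library lowest of its group in the early genes, 3 did (Car1, Car2 and Tspo2), against 7.96% of all genes, and Uros and Tspo2 did not overlap between groups, against 8.55%. Without p53-loss-only replicate 1 it was Car1 alone, against 2.47%. Without 11B3-deleted replicate 3, the library with high B-cell markers, 25 of 29 differences were above 0 and none had an unadjusted p under 0.05, and the median log2 difference was 2.86 for the early genes and 0.96 for the globins. No member passed the adjusted threshold in any of these fits.

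**Figure D4:**
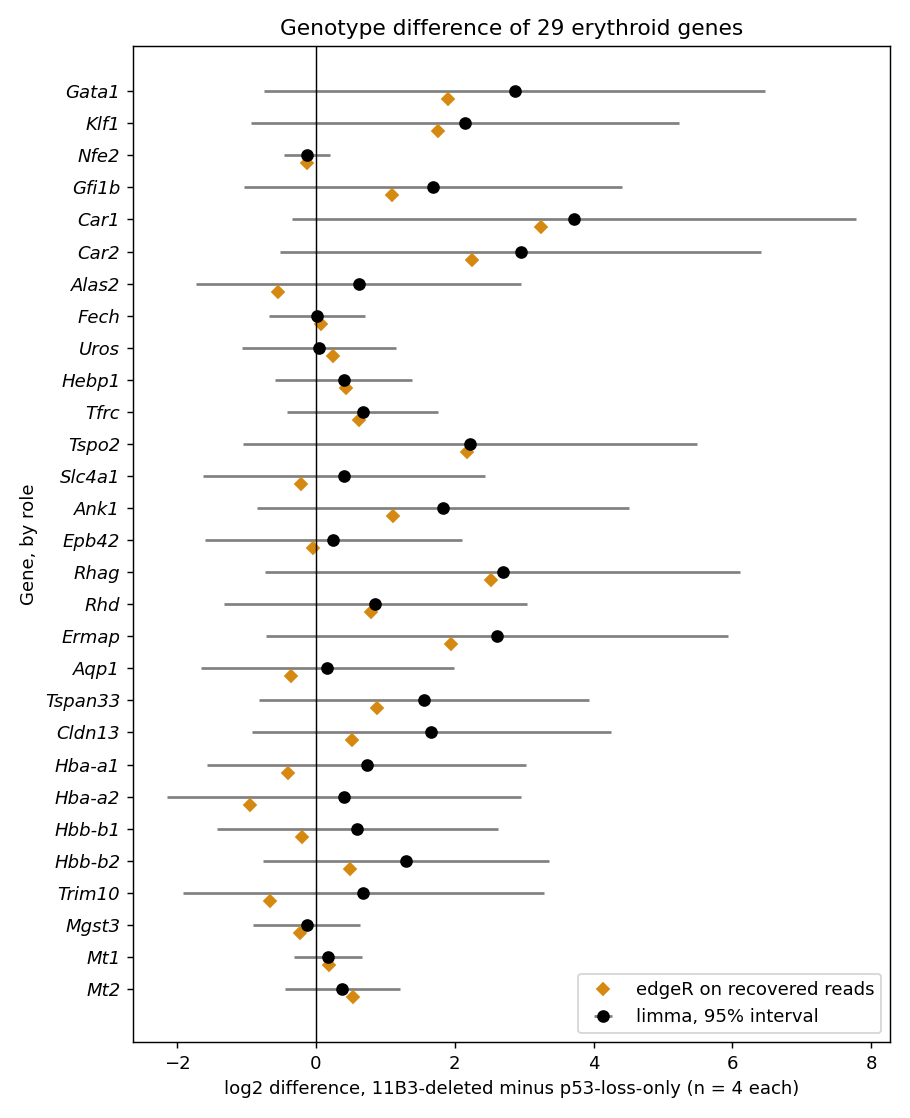
Log2 difference, 11B3-deleted minus p53-loss-only (n = 4 each), of 29 erythroid genes by role, with the limma estimate and its 95% interval (circles and bars) and the edgeR estimate on recovered reads (diamonds). Every interval crosses 0, and for 8 genes, Alas2, Slc4a1, Epb42, Aqp1, Hba-a1, Hba-a2, Hbb-b1 and Trim10, the circle lies right of 0 and the diamond left of it.

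Other genes of the pathway were read from further lists of erythroid genes. Of 15 other regulators, 9 had a higher mean and 6 a lower mean in the 11B3-deleted group, and none passed the adjusted threshold, with a median log2 difference of 0.31. Tal1, the partner of Gata1 in erythroid enhancer complexes, had 5435, 477, 1472 and 1474 in the 11B3-deleted libraries, against 639, 2380, 51.4 and 72.3 in the p53-loss-only libraries (log2 difference 2.49, SE 1.23). Zfpm1, a cofactor of Gata1, had 8805, 330, 2965 and 1749 in the 11B3-deleted libraries, against 725, 2494, 142.5 and 301 in the p53-loss-only libraries (log2 difference 1.90, SE 1.09). Both had the library order of the early members at the extremes.

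Gata2, the factor of stem and progenitor cells that Gata1 replaces as erythroid cells mature, did not run opposite to Gata1 throughout. It had 310.5, 1599, 367 and 1460 in the 11B3-deleted libraries, against 1967, 2763, 1409 and 1314 in the p53-loss-only libraries, a log2 difference of -1.31 (SE 0.57, adjusted p = 0.996 by limma). The libraries 11B3-deleted replicates 1 and 3, highest in Car1, were the lowest of the 8 for Gata2 and had the highest early-minus-globin differences. The library p53-loss-only replicate 2, second highest in Gata1, was the highest in Gata2. Jak2, the kinase behind the erythropoietin receptor, had a log2 difference of 0.42 (SE 0.19).

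Of 18 other haem and iron genes tested, 14 had a higher and 4 a lower mean in the 11B3-deleted group, with a median log2 difference of 0.23 and none past the adjusted threshold. Tfr2, the second transferrin receptor, had 5802, 111, 1377 and 647 in the 11B3-deleted libraries, against 351, 885, 13.1 and 87.3 in the p53-loss-only libraries, a log2 difference of 2.67 (SE 1.46). Abcb10, a mitochondrial transporter of haem synthesis, had a log2 difference of 0.99 (SE 0.41), Glrx5, a glutaredoxin of iron-sulphur assembly, 0.68 (SE 0.41), and Ftl1, a ferritin chain found in most cells, -0.58 (SE 0.24). Abcb10 and Ftl1 had an unadjusted p under 0.05 and an adjusted p of 0.996 by limma.

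Of 19 other membrane and terminal genes tested, 15 had a higher and 4 a lower mean in the 11B3-deleted group, with a median log2 difference of 0.46 and none past the adjusted threshold. Kel, the Kell blood group protease, had 2982, 125, 406 and 528 in the 11B3-deleted libraries, against 359, 433, 20.7 and 70.2 in the p53-loss-only libraries, a log2 difference of 2.12 (SE 1.16). Xk, the membrane partner of Kel, had a log2 difference of 0.77 (SE 0.44), and Bpgm, which makes the oxygen-release cofactor of red cells, -0.44 (SE 0.18, adjusted p = 0.996 by limma). At an unadjusted p under 0.05 limma gave 1 regulator, 2 haem and iron genes and 1 membrane gene in these lists, edgeR gave 1, 2 and 1, and DESeq2 gave 2, 2 and 4. Over all genes tested, the shares at that level were 3.56% by limma, 4.2% by edgeR and 5.49% by DESeq2. None in the 3 lists passed the adjusted threshold by DESeq2 either, where 0.444% of all genes did. Over the 3 lists together, 52 genes were tested, and 29 of them were highest in 11B3-deleted replicate 1, against 21.3% of all genes tested.

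The embryonic and fetal globins were near the floor. Of 6 named, 5 had a row and 1, Hbq1b, was tested, with 8.8 to 28.5 in the 11B3-deleted libraries and 2.1 to 88.2 in the p53-loss-only libraries. Its highest library, p53-loss-only replicate 2, was also the highest for the adult globins. The summed values of the 5 genes were 9 to 43 in the 11B3-deleted libraries and 2 to 103 in the p53-loss-only libraries.

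Markers of other marrow cells also differed between libraries, without 1 shared order against the erythroid genes. In 11B3-deleted replicate 1, the highest in early erythroid genes, the summed values of the 12 myeloid blast markers, 11 neutrophil markers and 12 monocyte and macrophage markers were each the lowest of the 8 libraries. The myeloid blast sum was 173466, 315333, 268111 and 667115 in the 11B3-deleted libraries, against 436336, 222168, 339335 and 276127 in the p53-loss-only libraries. In this list 1 of 12 genes had a higher mean in 11B3-deleted leukaemias and 11 a lower one. The neutrophil sum was 61100 to 195229 in the 11B3-deleted libraries and 90723 to 213643 in the p53-loss-only libraries. Its highest value was in p53-loss-only replicate 2, which is also rich in erythroid RNA. The monocyte and macrophage sum was 138080 to 309329 in the 11B3-deleted libraries and 215940 to 316995 in the p53-loss-only libraries. In 11B3-deleted replicate 1 Lyz2 made up most of that sum, at 103707, the lowest Lyz2 value of the 8 libraries. Mrc1, at 183.6, and C1qb, at 575.1, were the highest of the 8 there. The genes of the list thus went both ways, and its sum does not stand for the cell type. Of the neutrophil markers 5 had a higher and 6 a lower mean in the 11B3-deleted group, and of the monocyte and macrophage markers 6 had a higher and 6 a lower mean, with 4 of 12 at an unadjusted limma p under 0.05, against 3.56% of all genes tested. In this list DESeq2 called 1 gene at the adjusted threshold, against 0.444% of all genes, and limma called none, against 0.0136%. Cd68, a macrophage lysosomal protein, had the smallest p of the list and a log2 difference of -2.16 (SE 0.34, adjusted p = 0.288 by limma). Whether Cd68 lies in the deleted 11B3 interval was not checked here, so its difference is not read as one of macrophage number. The part of these cell types in the erythroid values was not tested.

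The cycling markers, which dividing erythroid and myeloid cells share, had a higher mean in the 11B3-deleted group for 12 of 12 genes, with sums of 130043, 79274, 128928 and 112805 in the 11B3-deleted libraries, against 91746, 90969, 79732 and 105071 in the p53-loss-only libraries. None passed the adjusted threshold by limma, with 1 at an unadjusted p under 0.05 by limma, edgeR and DESeq2 each. The shares over all genes tested were 3.56%, 4.2% and 5.49% at that unadjusted level, in the same order. The libraries with the most Car1 had the highest sums. Markers of the macrophages that surround erythroblasts summed to 31837 in p53-loss-only replicate 3, the library lowest in most members, against 5662 to 11056 in the 11B3-deleted libraries and 5619 to 8981 in the other p53-loss-only libraries. A single gene, Cd163, made up most of that sum, with 20243.8 in that library. Of the same list Hmox1, at 7220.5, was also the highest of the 8 libraries there. Siglec1 was 271.8 there, within its range of 23.4 to 640.9. Vcam1, Spic, Slc40a1 and Maea were among their lower values there. The genes of the list thus went both ways, and the sum does not stand for the cell type. Megakaryocyte markers, which share Gata1, Gfi1b and Nfe2 as regulators, summed to 2128, 3776, 1214 and 5202 in the 11B3-deleted libraries, against 3129, 4084, 1987 and 923 in the p53-loss-only libraries, and 11B3-deleted replicate 1 was not among the highest. Mast cell, basophil and eosinophil markers summed to 642 to 5793 in the 11B3-deleted libraries and 698 to 2343 in the p53-loss-only libraries. T and NK cell markers summed to 614 to 5541 in the 11B3-deleted libraries and 780 to 1210 in the p53-loss-only libraries. The highest of these sums, in 11B3-deleted replicate 3, was mostly Il7r, a gene that B-cell progenitors also express, with 5270.9, while Cd3e was 14.6 there. Stroma and vessel markers summed to 2579 to 14986 in the 11B3-deleted libraries and 5343 to 7319 in the p53-loss-only libraries, with the lowest sum in 11B3-deleted replicate 1. Pecam1 made up most of that lowest sum, at 1770.1. It was lowest of the 8 libraries there, as were Col1a1, Col3a1 and Kitl. Lepr, at 234.3, was among its higher values there, so the genes of this list also went both ways. No marker of these lists was at 0 reads in all 8 libraries, and the part of these cells in the erythroid values was not tested.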

How the data were processed

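The authors sequenced RNA of 8 leukaemias, 4 of each genotype, and counted reads per gene. Per the submitters' processing notes, the tools were DESeq, HTSeq and STAR and the build was mm9; neither roles nor versions are named. Each deposited table holds 1 signal value per gene for 18860 genes. As the values themselves show, the deposited signal is 1 plus a whole number of reads times a step fixed for the library. Reads recovered from it were whole for 100% of values, within a tolerance of 0.02; with these reads, edgeR called 1 of all genes tested. The sources used here do not say how strand and reads shared between gene copies were treated.

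Sample titles gave the groups. The main test was limma (trend option) on log2 of the deposited value, so the deposited 1 was the pseudocount and folds of low genes are understated. Genes at 10 or more in at least 4 libraries were tested (14679), two-sided, with group as the only term and Benjamini-Hochberg adjustment at 0.05 over all genes tested. Versions were DESeq2 1.42.0, edgeR 4.0.16, limma 3.58.1 and R 4.3.3. Symbols, chromosomes and exon lengths come from GENCODE M21 (GRCm38), promoters from RefSeq (GRCm38.p6). The limma fit, but not the edgeR or DESeq2 fit, was run on simulated data, and the outcome is not given here. Each of the 28 pairs of libraries differed by more than sampling noise (smallest chi-square per degree of freedom 95.9). Samples that share a replicate number did not deviate together (correlations -0.03, -0.217, -0.414 and -0.243), so the main fit did not pair them by number. These few correlations cannot exclude a shared origin or batch.

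The members and the gene lists were chosen with earlier results of these data known. All members are named. Of each other erythroid list the 4 tested genes with the smallest p are named, except 1 that is not reported here. The rule also took the 2 highest genes of each marker list of other cells, but these lists are given by their sums. Of single markers Mpo is printed. Cd68, Lyz2, Mrc1, C1qb, Cd163, Hmox1, Siglec1, Vcam1, Spic, Slc40a1, Maea, Il7r and Cd3e were chosen after their values were seen. So were Pecam1, Col1a1, Col3a1, Kitl and Lepr. Eif5a, Trp53, Sco1 and Alox12 were added to check the labels. Alternatives were values rescaled with TMM factors, a constant of 5, no filter, a filter in all 8 libraries, edgeR and DESeq2 on recovered reads, the replicate number as a block, and each library left out.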

Additional observations from a re-analysis of the deposited data

Results flagged for a closer look

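Within each genotype, the highest and the lowest library were checked against the others on the log2 scale for each member and for the early and globin levels, 62 groups in all. Fech in p53-loss-only replicate 2, with a value of 3782.6 against 2314 to 2516 in the other p53-loss-only libraries, was the single group with a library far from the rest. Chance alone flags about 1 in 20 such groups.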

How the results depend on the processing

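No member passed the adjusted threshold under any of the 15 alternatives (smallest adjusted p 0.613), and 17 of 29 members kept the sign of their log2 difference in all of them. Over all genes tested, 2 genes passed in the main fit, against 1 with a constant of 5, 0 with the filter in all 8 libraries, 1 by edgeR, 58 by DESeq2, 0 with the replicate block and 0 to 1 with a library left out. Members with an unadjusted p under 0.05 numbered 0 in the main fit, 1 by DESeq2, 0 with the replicate block and 0 to 11 with a library left out, and 0 to 2 members then had groups that did not overlap.

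Signs changed on the count scale for 8 members. By edgeR, the log2 difference was -0.55 for Alas2, -0.21 for Slc4a1, -0.0457 for Epb42, -0.36 for Aqp1, -0.40 for Hba-a1, -0.95 for Hba-a2, -0.20 for Hbb-b1 and -0.67 for Trim10. By DESeq2 it was -0.54 for Alas2, -0.21 for Slc4a1, -0.0443 for Epb42, -0.36 for Aqp1, -0.39 for Hba-a1, -0.95 for Hba-a2, -0.19 for Hbb-b1 and -0.66 for Trim10. These models compare arithmetic means, which split 19 higher and 10 lower as their estimates do.

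With a library left out, the limma log2 difference ran from -0.21 to 1.45 for Alas2, -0.24 to 0.26 for Fech, -0.19 to 0.57 for Uros, -0.35 to 1.06 for Slc4a1, -0.32 to 0.88 for Epb42, -0.54 to 0.73 for Aqp1, -0.17 to 1.66 for Hba-a1, -0.68 to 1.41 for Hba-a2, -0.21 to 1.33 for Hbb-b1, -0.18 to 1.78 for Trim10, -0.44 to 0.0695 for Mgst3 and -0.00996 to 0.60 for Mt2. The median of the early genes ran from 1.69 to 4.06 and that of the globins from -0.19 to 1.54, with the value below 0 in the absence of p53-loss-only replicate 3. The cause was not tested. The fewest reads behind a member's value were 8, so counting error is widest for Gata1 and Hba-a2 in p53-loss-only replicate 3.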
